A study of Mus musculus with 30 samples.

Results

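RNA from whole testis of adult mice homozygous for the WLA allele of Ythdc2 (WLA/WLA) was compared with RNA from heterozygous mice (WLA/+), all labelled C57BL/6J. The comparison rests on 6 of the 30 libraries of the series, 3 homozygous and 3 heterozygous, chosen by their labelled genotype and age class. Each group held 2 animals aged 24 weeks and 1 aged 20 weeks. The heterozygous controls carry the WLA allele too, and no adult wild-type testis was analysed here. The labels do not define WLA; from what is known of the study, the allele changes residues of the pocket with which the YTH domain holds m6A. The other 24 libraries come from juvenile Ythdc2 knockout mice and their controls, another allele at another age.

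YTHDC2 is an RNA helicase that also carries a YTH domain, the fold with which reader proteins bind N6-methyladenosine (m6A) in RNA. It acts in a complex with MEIOC and RBM46, binds the exonuclease XRN1, and is needed in mouse germ cells to leave the mitotic programme and carry through meiosis. Adult testis holds every stage of spermatogenesis at once, from spermatogonia through spermatocytes to round and elongating spermatids, together with Sertoli, Leydig, peritubular and blood-borne cells. In such whole-tissue RNA, fewer cells of a type and less RNA per cell cannot be told apart.

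The 6 libraries held between 33331987 and 43707798 counted reads. The 50 features with most reads took 9.57% to 9.88% of each library, and protein-coding genes 96.2% to 96.5%. Of 55566 features in the table, 22446 had enough reads to be tested. Levels are given as CPM, counted reads relative to the library size as scaled by TMM, and are not corrected for length. The table numbers its columns 1 to 3 within each genotype and does not tie them to animals, so age could not enter the comparison.

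One library stood apart from its group, and the heterozygous group as a whole was spread. On the first principal component of log2(CPM + 1), which held 42.1% of the variance, heterozygous library 1 lay at 10.0, among the homozygous libraries at 11.5, 6.87 and 3.29. Heterozygous libraries 2 and 3 lay at the other end, at -12.6 and -19.1. On the second component (21% of the variance) heterozygous library 1 lay alone at 16.1, and all the others were between -9.73 and 1.77. Counts of heterozygous library 1 differed from those of homozygous libraries 1, 2 and 3 by a chi-square per degree of freedom of 3.97, 3.66 and 6.47, against 10 and 9.05 from heterozygous libraries 2 and 3. The 3 homozygous libraries differed among themselves by 1.79 to 3.98. Heterozygous libraries 2 and 3 differed from each other by more than that, at 6.35. They also lay far apart on the third component (15.2% of the variance), at -13.5 and 10.2. As WLA is understood to change residues of the protein and not to remove its RNA, the Ythdc2 level does not check these genotype labels. Values without heterozygous library 1 are given beside those of all 6 libraries for many of the classes and lists whose calls or medians it moves.

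**Figure D1:**
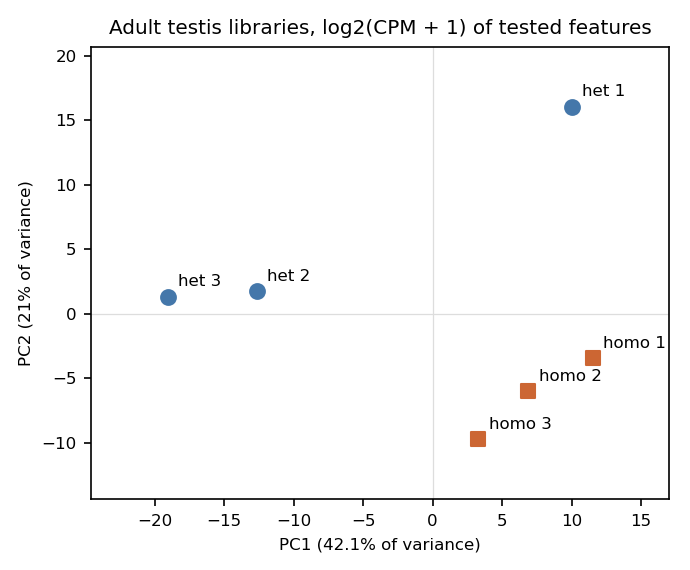
Principal components of log2(CPM + 1) over the tested features, with 1 point per library (circles heterozygous, squares homozygous). Heterozygous library 1 sits at 10.0 on the first axis beside the homozygous libraries, and at 16.1 on the second axis away from all the others.

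The transcript of the targeted gene was at a like level in both genotypes. Ythdc2 had 34.3, 35.8 and 29.9 CPM in the heterozygous libraries and 35.8, 32.8 and 33.7 CPM in the homozygous ones, so the groups overlapped. Its partners also overlapped between the groups. Meioc, which encodes the meiosis-specific coiled-coil partner of YTHDC2, had 161, 168 and 150 CPM against 164, 169 and 168. Rbm46, the RNA-binding partner, had 42.9, 45.0 and 38.9 CPM against 43.7, 43.4 and 42.3. Xrn1, the exonuclease that degrades RNA from its 5′ end, had 21.0, 22.0 and 19.5 CPM against 20.0, 21.0 and 19.7. The 95% intervals of the 4 log2 fold changes lay between -0.19 and 0.19, within 1.5-fold, and the smallest edgeR adjusted p of the 4 was 0.622.

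A small set of transcripts differed between the genotypes. With edgeR's quasi-likelihood test and Benjamini-Hochberg adjustment over all tested features, 53 of 22446 passed an adjusted p of 0.05 (0.236%), 21 higher (0.0936%) and 32 lower (0.143%) in homozygous testis. Unadjusted, 1312 features were higher (5.85%) and 1642 lower (7.32%) at a p under 0.05. All 53 had groups that did not overlap in CPM, as had 4322 features (19.3%) of all tested. Most genes named below were also chosen for groups that do not overlap, so that separation is not further support for them. The changes were modest in size: log2 fold changes ran from 0.29 to 1.06 among the higher (median 0.48) and from -0.27 to -1.36 among the lower (median -0.51), and 19 of the 53 reached 1.5-fold, 7 higher and 12 lower. The median log2 fold change of all tested features was 0.01.

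How many features pass depended on which library was in the fit. Without heterozygous library 1, 1917 features passed (8.37%), 1052 higher (4.59%) and 865 lower (3.78%), and all 53 were among them. That library was singled out in these same data for lying near the homozygous ones, so keeping the 53 in that fit is not separate support for them. Without any one of the other 5 libraries the count fell to 15 (heterozygous library 3), 4 (heterozygous library 2, homozygous library 2 and homozygous library 3) or 3 (homozygous library 1), each a subset of the 53. Pcnx2, Dpf3 and 1700016K05Rik passed in all 6 of these fits, and Hyal6, Limk2 and Ndst4 in 3 of 6. With upper-quartile in place of TMM scaling 23 were higher and 67 lower. As to precision, the 95% interval of the fold change lay within 1.5-fold for 69.7% of features, and for 98.5% of those at or above the median level of 6.32 CPM.

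**Figure D2:**
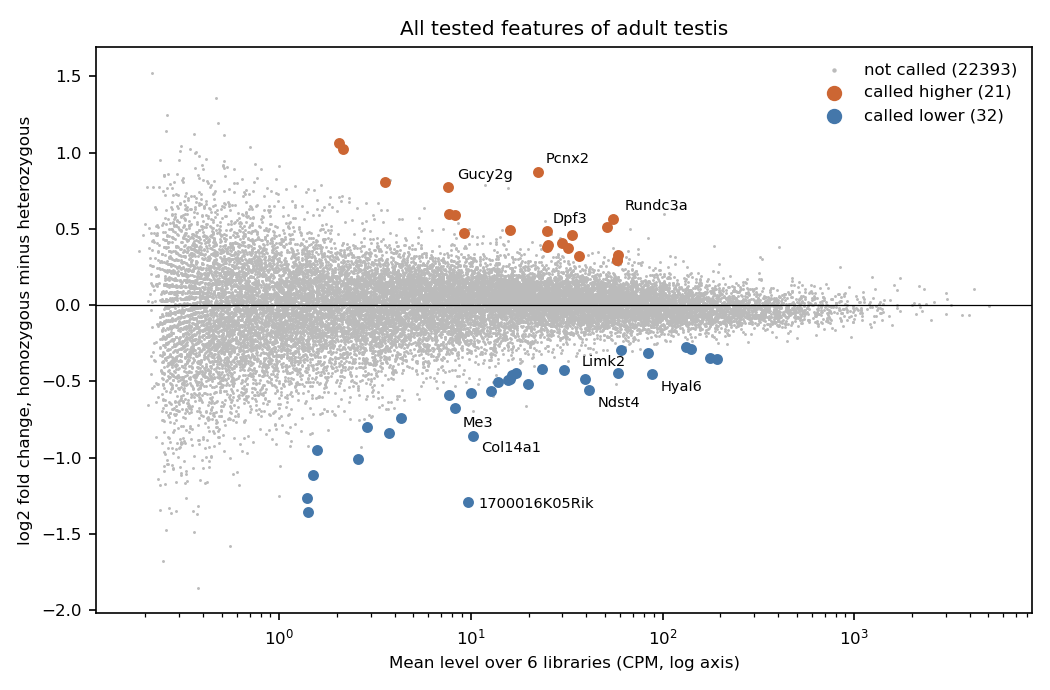
The log2 fold change (homozygous minus heterozygous) of the 22446 tested features against their mean level over the 6 libraries in CPM on a log axis. The 21 features called higher and the 32 called lower lie at the rim of the cloud between log2 fold changes of 1.06 and -1.36, and most features of high level lie near 0.

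The first bases before and after the start sites of 4 features that changed are shown here, since these features lead the comparison: the 2 higher and the 2 lower with the smallest p among those with exactly 1 promoter in the RefSeq table (build GRCm38.p6). Each window runs from 250 bases before to 50 after the annotated start, 5′ to 3′ in the direction of transcription. Pcnx2 is at chr8:125898268-125898567 on the minus strand, Dpf3 at chr12:83487687-83487986 on the minus strand, 1700016K05Rik at chr17:66714206-66714505 on the plus strand and Hyal6 at chr6:24732995-24733294 on the plus strand. Capitals mark CCAAT, or ATTGG where the motif is on the other strand.
Pcnx2: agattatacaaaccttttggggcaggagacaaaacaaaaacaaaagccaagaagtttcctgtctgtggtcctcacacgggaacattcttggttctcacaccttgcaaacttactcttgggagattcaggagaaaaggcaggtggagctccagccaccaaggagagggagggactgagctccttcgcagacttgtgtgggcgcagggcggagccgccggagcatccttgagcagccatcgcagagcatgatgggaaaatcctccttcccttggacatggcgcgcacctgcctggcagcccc
Dpf3: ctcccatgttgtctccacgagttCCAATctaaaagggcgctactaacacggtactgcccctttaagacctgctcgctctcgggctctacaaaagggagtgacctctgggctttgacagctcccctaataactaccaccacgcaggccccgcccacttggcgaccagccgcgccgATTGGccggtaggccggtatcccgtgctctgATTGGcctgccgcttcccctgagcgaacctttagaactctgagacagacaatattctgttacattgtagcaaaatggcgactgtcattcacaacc
1700016K05Rik: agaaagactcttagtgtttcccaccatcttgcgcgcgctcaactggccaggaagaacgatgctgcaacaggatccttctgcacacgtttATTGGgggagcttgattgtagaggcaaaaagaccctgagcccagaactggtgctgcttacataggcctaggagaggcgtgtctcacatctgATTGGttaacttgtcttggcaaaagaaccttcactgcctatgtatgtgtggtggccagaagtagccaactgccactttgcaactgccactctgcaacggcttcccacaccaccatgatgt
Hyal6: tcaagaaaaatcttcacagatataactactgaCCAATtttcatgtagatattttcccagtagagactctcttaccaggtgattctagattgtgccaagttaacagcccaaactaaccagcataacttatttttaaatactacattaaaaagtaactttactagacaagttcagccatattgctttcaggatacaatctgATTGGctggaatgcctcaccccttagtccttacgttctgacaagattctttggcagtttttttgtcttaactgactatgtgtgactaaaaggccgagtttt

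Of the 4 windows, that of Dpf3 held CCAAT 3 times, from bases 24, 175 and 206 of the window. The windows of 1700016K05Rik and Hyal6 held it 2 times each, from bases 90 and 181 and from bases 33 and 200, and that of Pcnx2 held none. CCAAT on either strand was in 37.4% of all 32851 promoters in the table, and in 10 of the 24 called features with exactly 1 promoter there. The motifs TATAAA (13.6% of all promoters), TGACGTCA (1.79%) and CACGTG (7.15%), also searched on both strands, had no match in the 4 windows. None of the 4 motifs overlaps another. A match is a stretch of letters and does not show that a factor binds there.

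Pcnx2 and Dpf3 led the transcripts that rose. Pcnx2 (chromosome 8, 125751504 to 125898332), a member of the pecanex family of membrane proteins, had 16.2, 15.8 and 15.1 CPM in heterozygous and 28.4, 31.4 and 26.8 CPM in homozygous libraries. Every homozygous library stood far above every heterozygous one, a 1.83-fold difference (log2 fold change 0.88 ± 0.07 SE, edgeR adjusted p 0.00114, n = 3 each). Dpf3 (chromosome 12, 83213751 to 83487736) encodes a subunit of the BAF chromatin remodelling complex that reads acetylated and methylated histones. It had 42.5, 42.5 and 41.7 CPM against 59.7, 62.3 and 59.0, with a spread within each genotype that was small beside the gap (0.51 ± 0.05, edgeR adjusted p 0.00178).

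Gucy2g, Agtr1a and Acvr1b, which encode receptors, and the signalling genes Pgf, Rundc3a and Agap3 also rose. Gucy2g (chromosome 19, 55198099 to 55241252), a receptor guanylyl cyclase, had 5.79, 5.70 and 5.41 CPM against 10.0, 9.44 and 9.42, a 1.71-fold difference (log2 fold change 0.77 ± 0.09 SE, edgeR adjusted p 0.00802). Agtr1a, the type 1a receptor of angiotensin II, had 24.7, 26.6 and 25.9 CPM against 33.8, 33.3 and 35.0, a 1.32-fold difference (edgeR adjusted p 0.0205). Acvr1b, a type I receptor for activins, had 22.1, 23.5 and 19.9 CPM against 28.7, 29.2 and 28.1, a 1.31-fold difference, and its edgeR adjusted p of 0.0476 lay close to the threshold. In all 3 receptor genes every homozygous library lay above every heterozygous one, as the rule by which they were named requires. Pgf, a growth factor of the VEGF family, had 6.02, 6.17 and 6.19 CPM against 9.92, 9.38 and 8.46, a 1.51-fold difference (edgeR adjusted p 0.0271). Rundc3a, an effector of the small GTPase Rap, had 51.2, 36.7 and 44.8 CPM against 67.0, 65.7 and 63.7 (log2 fold change 0.57, edgeR adjusted p 0.0328). The heterozygous libraries of Rundc3a spread over a wide range, and library 1 was the highest of them. Agap3, a GTPase-activating protein for Arf, had a log2 fold change of 0.46 (edgeR adjusted p 0.0421) and likewise its highest heterozygous value, 32.2 CPM, in library 1.

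The transcription factor genes Runx3 and Hoxa4 rose as well. Runx3 had 22.1, 19.7 and 20.5 CPM against 27.3, 28.4 and 31.3, a 1.40-fold difference (log2 fold change 0.48 ± 0.07 SE, edgeR adjusted p 0.0224). Hoxa4 had 52.5, 51.0 and 52.4 CPM against 63.7, 66.2 and 66.3, a 1.26-fold difference (0.33 ± 0.05, edgeR adjusted p 0.0205). The region of Hoxa4 overlaps the annotated Hoxa3, whose own log2 fold change was 0.49 with an edgeR adjusted p of 0.135; the strand used in counting is not stated, so reads of overlapping genes cannot be told apart. The remaining genes that rose by the naming rule were Iglon5, a cell adhesion protein of the immunoglobulin superfamily (log2 fold change 0.59), Dipk1a (0.49) and Mtmr10, of the myotubularin phosphatase family (0.38). Dipk1a overlaps Rpl5, a ribosomal protein gene with a log2 fold change of -0.03. The one unnamed transcript that rose and met the rule on level was 4930560O18Rik, with 7.70, 7.37 and 8.22 CPM against 10.8, 11.0 and 10.5 (0.47), and its edgeR adjusted p of 0.0494 was the largest of the 53. Baiap3 (0.81), Gldn (1.06), Col2a1, the type II collagen chain (0.30), and Chst1, a sulfotransferase (0.29), also rose. They were named after their values were seen. Baiap3 and Gldn had mean levels of 3.55 and 2.05 CPM, under the median of tested features. Baiap3 overlaps Tsr3 (8.00 CPM, log2 fold change 0.09), and Gldn overlaps Gldnos (16.7 CPM, -0.09).

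**Figure D3:**
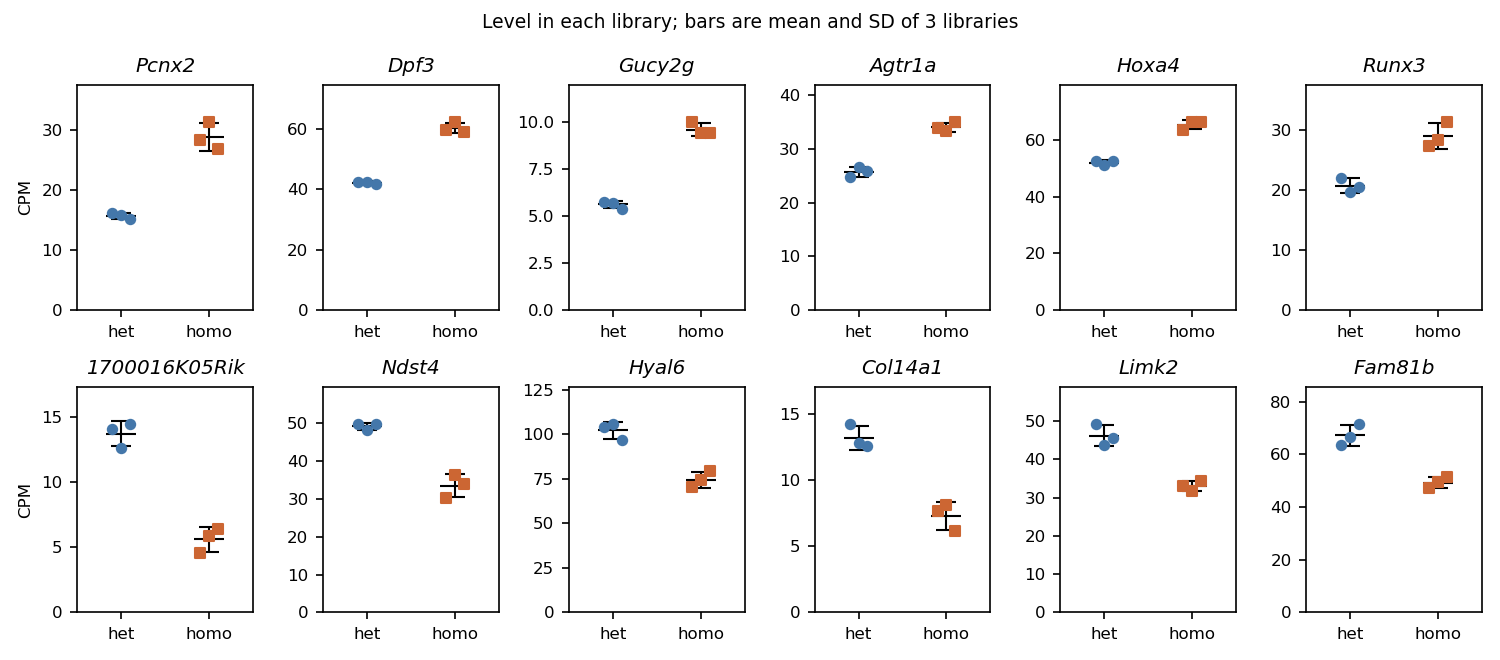
Level in CPM of 12 features in each library, 6 that rose (upper row) and 6 that fell (lower row), with 1 point per library and bars for mean and SD of 3 libraries; axes start at 0. In each panel the 3 homozygous points lie apart from the 3 heterozygous ones, which the choice of these features required. Pcnx2, for example, had 28.4, 31.4 and 26.8 against 16.2, 15.8 and 15.1 CPM.

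The largest drop at a level above the median was that of 1700016K05Rik (chromosome 17, 66714456 to 66720485), annotated as an antisense transcript. It had 14.1, 12.6 and 14.5 CPM in heterozygous and 4.57, 5.88 and 6.42 CPM in homozygous libraries, a ratio of 0.409 (log2 fold change -1.29 ± 0.12 SE, edgeR adjusted p 0.0015, n = 3 each). No homozygous library reached even the lowest heterozygous one. The transcript lies within Ptprm, a receptor-type tyrosine phosphatase gene, whose own log2 fold change was -0.19 with an edgeR adjusted p of 0.363.

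Ndst4 and Hyal6, which encode enzymes acting on sugar chains of the cell surface and matrix, fell, while the sulfotransferase gene Chst1, given above, rose. Ndst4 (chromosome 3, 125404029 to 125728351), which removes acetyl groups from heparan sulfate and adds sulfate, had 49.7, 48.2 and 49.8 CPM against 30.4, 36.3 and 33.9 (log2 fold change -0.56 ± 0.07 SE, edgeR adjusted p 0.00969). Hyal6 (chromosome 6, 24733245 to 24745452), of the hyaluronidase family, had 104, 106 and 96.6 CPM against 70.2, 74.2 and 79.3 (-0.45 ± 0.06, edgeR adjusted p 0.0105). Both were lower in 3 of 3 homozygous libraries than in any heterozygous one. Matrix protein genes of both directions were among the 53. Col14a1, a fibril-associated collagen chain, had 14.2, 12.8 and 12.5 CPM against 7.68, 8.08 and 6.11 (-0.86 ± 0.11, edgeR adjusted p 0.0105), and Epyc, a small leucine-rich proteoglycan, had 22.7, 24.3 and 23.0 CPM against 16.0, 14.5 and 18.4 (-0.52, edgeR adjusted p 0.0328). The collagen gene Col2a1, given above, rose.

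Limk2, Patj, Me3 and Fam81b fell as well. Limk2, a kinase that phosphorylates the actin-severing protein cofilin, had 49.1, 43.7 and 45.7 CPM against 33.1, 31.7 and 34.3 (log2 fold change -0.48 ± 0.06 SE, edgeR adjusted p 0.0105). Patj, a scaffold of the Crumbs polarity complex, had 19.8, 18.9 and 17.0 CPM against 13.4, 13.4 and 13.0 (-0.49, edgeR adjusted p 0.0274). Me3, the mitochondrial NADP-dependent malic enzyme, had 10.0, 9.88 and 10.5 CPM against 6.61, 6.42 and 5.95 (-0.68 ± 0.09, edgeR adjusted p 0.0106). Their homozygous libraries agree closely with each other, and all lie under the heterozygous ones. Fam81b, a gene without a role given here, had 63.6, 66.5 and 71.4 CPM against 47.2, 49.4 and 51.3 (-0.45, edgeR adjusted p 0.0106). The rest of the genes under the rule had log2 fold changes from -0.46 to -0.59 and edgeR adjusted p between 0.0246 and 0.0438. They were Pcare, an actin regulator of the photoreceptor cilium (-0.59), Klrb1, a lectin-like receptor (-0.50), Smpdl3a, a phosphodiesterase related to acid sphingomyelinase (-0.49), and Kcng1, a modifier subunit of voltage-gated potassium channels (-0.46).

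Unnamed and noncoding transcripts made up a part of those that fell. By class, 18 of 16144 protein-coding genes rose and 18 fell, while among 1999 intergenic long noncoding RNAs (lincRNAs) 2 rose and 8 fell, and among 1124 antisense transcripts 0 rose and 4 fell. The shares called were 0.223%, 0.5% and 0.356%, against 0.236% of all features. Without heterozygous library 1, 1013 of 16302 protein-coding genes passed as higher and 462 as lower, against 4.59% and 3.78% of all features. The antisense Gm45025 had 14.6, 15.6 and 15.1 CPM against 10.1, 9.71 and 10.9 (log2 fold change -0.56, edgeR adjusted p 0.0203). The lincRNA Gm34549 had 11.4, 11.9 and 12.6 CPM against 8.20, 8.35 and 7.63 (-0.57, edgeR adjusted p 0.0205). In both the groups stood apart by more than their spread. One piRNA cluster, mmu-clu-153, fell from 1.70, 2.22 and 2.01 CPM to 0.845, 0.814 and 0.802 (-1.27, edgeR adjusted p 0.0205). It had nearly the counts of the lincRNA 1700063H04Rik, 1.73, 2.35 and 2.01 CPM against 0.746, 0.754 and 0.880, so the same reads may have been counted in both.

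Beyond the calls, lincRNAs and antisense transcripts lay to the lower side as classes. So did features annotated as TEC (median log2 fold change -0.09), processed transcripts (-0.06) and sense intronic transcripts (-0.20). At an unadjusted p under 0.05 these had 8 higher and 51 lower, 5 and 33, and 0 and 9, against 5.85% and 7.32% of all features. The 107 piRNA clusters tested had a median of 0.05, with 9 higher and 6 lower at that p. Without heterozygous library 1 the piRNA cluster median was -0.02, with 3 called higher and 4 lower. The median log2 fold change was -0.14 over lincRNAs and -0.10 over antisense transcripts, against 0.02 over protein-coding genes and 0.01 over all features. At an unadjusted p under 0.05, 336 lincRNAs were lower and 32 higher, and 164 antisense transcripts were lower and 19 higher. Their share of reads varied within the heterozygous group: lincRNAs took 1.02%, 1.15% and 1.18% of reads in heterozygous libraries and 1.01%, 1.03% and 1.06% in homozygous ones. Heterozygous library 1 thus held a share within the homozygous range. Without heterozygous library 1 the lincRNA median was -0.21, with 9 of 2072 higher and 202 lower, and the antisense median -0.17, with 6 of 1166 higher and 103 lower, where 4.59% of all features were higher and 3.78% lower. In the fit without heterozygous library 1, TEC features had a median of -0.17, with 4 of 509 higher and 20 lower. Processed transcripts had a median of -0.13 there, with 2 of 394 higher and 20 lower. Without heterozygous library 3 the lincRNA median was -0.10. The antisense share of reads followed the same order, 0.674%, 0.731% and 0.755% against 0.665%, 0.671% and 0.688%. The part of library structure in this difference was not tested.

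The lists of germ cell genes were read next, since YTHDC2 acts at the entry into meiosis. Over 42 genes of meiotic entry and early prophase, all tested, 0 rose and 0 fell by edgeR's adjusted p. At an unadjusted p under 0.05, 3 were higher and 2 lower, against 5.85% and 7.32% of all features. DESeq2, which called 0.971% of all features, called 0 of the 42. Their median log2 fold change was 0.05, with 26 above 0 and 16 below, and 40 of the 42 had a 95% interval within 1.5-fold. Stra8, the retinoic acid target that opens meiosis, had 10.8, 8.82 and 11.5 CPM against 13.5, 13.0 and 12.2, a log2 fold change of 0.32 ± 0.10 SE that did not pass (edgeR adjusted p 0.228). Its partner Meiosin, listed as Gm4969, had 15.6, 14.2 and 15.5 CPM against 18.3, 18.5 and 15.4, so its groups overlapped (0.20, edgeR adjusted p 0.345). Rec8, the meiotic cohesin subunit, had 95.5, 102 and 103 CPM against 85.5, 88.5 and 96.5, again overlapping (-0.15, edgeR adjusted p 0.289). Without heterozygous library 1, Stra8 passed with 0.35 (edgeR adjusted p 0.0413) and Rec8 with -0.18 (edgeR adjusted p 0.0489). They were the 1 higher and the 1 lower of the 42 in that fit, where 4.59% of all features were higher and 3.78% lower. The list's median was then 0.03. Of the synaptonemal complex genes, Sycp1 had a log2 fold change of 0.09 and Sycp3 of 0.04, with edgeR adjusted p of 0.611 and 0.812 and 95% intervals within 1.5-fold.

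With all 6 libraries, genes of earlier and later germ cell stages did not pass either. None of the 15 undifferentiated and 11 differentiating spermatogonia genes tested was called by edgeR or DESeq2, and their unadjusted counts at a p under 0.05 were 2 and 1, all higher. At that p 5.85% of all features were higher and 7.32% lower. The 11 differentiating spermatogonia genes all had log2 fold changes above 0, with a median of 0.09. In pachytene and later spermatocytes (18 genes, median -0.01) edgeR called 0, with 3 higher and 2 lower at an unadjusted p under 0.05. DESeq2, which called 0.388% of all features higher, called Adad2, an RNA-binding protein of late spermatocytes, higher. Adad2 had 26.4, 23.2 and 26.1 CPM against 34.6, 30.8 and 28.8 (0.32, edgeR adjusted p 0.133). In round spermatids (20 genes, median -0.08) edgeR called 0, with 1 higher and 4 lower unadjusted, and DESeq2 called Izumo1, the sperm protein that binds the egg receptor, lower (DESeq2 called 0.584% of all features lower). Izumo1 had 94.1, 99.0 and 103 CPM against 81.1, 84.9 and 82.0 with groups apart, and its edgeR adjusted p of 0.0687 just missed the threshold (-0.25). Elongating spermatid genes (20 tested) had a median of -0.04 and 0 calls by either tool, with 2 lower unadjusted, and all 20 lay within 1.5-fold by their 95% intervals. The summed level of that list ranged from 25601 to 29132 CPM in heterozygous and from 27639 to 27923 CPM in homozygous libraries, which the heterozygous range encloses. Without heterozygous library 1, where 4.59% of all features passed as higher and 3.78% as lower, 2 of 11 differentiating spermatogonia genes passed as higher (Stra8 and Ccnd2), 2 of 18 pachytene genes as higher (Adad2 and Hspa2) and 2 as lower (Nme5 and Aurkc). In that fit 1 of 20 elongating spermatid genes passed as higher (H1f7) and 1 as lower (Capza3), and the medians of these 3 lists were 0.12, -0.05 and -0.06. With heterozygous library 3 left out instead, these medians were 0.07, 0.02 and 0.02.

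The medians of RNA-modification and small-RNA lists stayed close to 0. Among 19 m6A writers, erasers and readers edgeR and DESeq2 called 0, the median was 0.03, and 1 gene was higher at an unadjusted p under 0.05, the reader Igf2bp1 with 10.6, 10.9 and 11.4 CPM against 13.1, 11.5 and 13.0 (edgeR adjusted p 0.349). All 19 had 95% intervals within 1.5-fold. Among 23 PIWI and piRNA biogenesis genes the median was again 0.03, with 0 called by either tool. Unadjusted, where 5.85% of all features were higher and 7.32% lower, 0 of the 23 were lower and 5 higher. Of these, Piwil1, the pachytene PIWI protein, had 501, 465 and 495 CPM against 540, 528 and 522 (0.12, edgeR adjusted p 0.276).

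**Figure D4:**
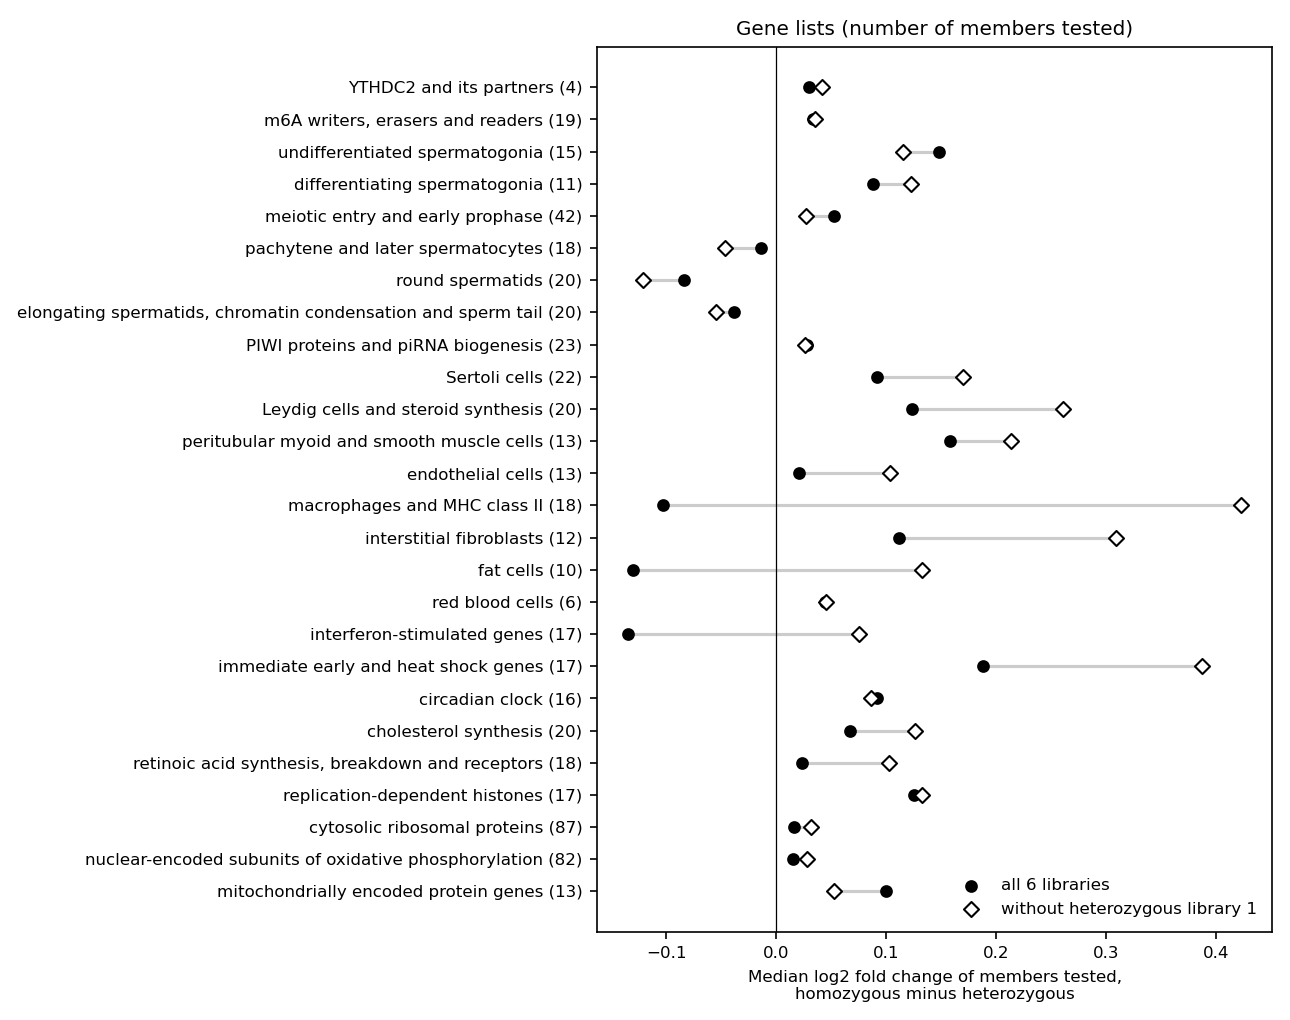
Median log2 fold change (homozygous minus heterozygous) of each gene list with 4 or more tested members, with all 6 libraries (filled) and without heterozygous library 1 (open). With all 6 libraries each median lies between -0.14 and 0.19, and without that library the macrophage list moves from -0.10 to 0.42.

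Macrophage genes were the list in which heterozygous library 1 stood out most. The 18 macrophage and MHC class II genes had summed levels of 629, 472 and 491 CPM in heterozygous and 484, 476 and 472 CPM in homozygous libraries. EdgeR and DESeq2 called 0 of them, and 1 was lower at an unadjusted p under 0.05 (7.32% of all features). Cd74, the invariant chain of MHC class II, had 56.0, 8.05 and 7.39 CPM against 19.7, 10.0 and 15.2 (log2 fold change -0.66 ± 0.60 SE, edgeR adjusted p 0.671). Heterozygous library 1 stood far above the other 5. The same held for H2-Aa, an MHC class II chain, with 30.4, 4.43 and 3.51 CPM against 9.92, 5.37 and 8.20. Without that library the list's median went from -0.10 to 0.42, and 7 of 18 genes passed as higher (Cd74, H2-Aa, H2-Ab1, H2-Eb1, C1qa, C1qc and Lyz2), against 4.59% of all features.

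Leydig, Sertoli and contractile genes lay slightly above 0 as lists and held no call. Of 20 Leydig and steroid synthesis genes 17 were above 0 (median 0.12, 2 higher and 1 lower unadjusted), of 22 Sertoli genes 21 (median 0.09, 4 higher unadjusted) and of 13 peritubular myoid genes 11 (median 0.16, 5 higher unadjusted). DESeq2 called none of them. Over all features, 5.85% were higher and 7.32% lower at an unadjusted p under 0.05. Cyp17a1, which turns progestins into androgens, had 184, 180 and 118 CPM against 218, 206 and 207 (log2 fold change 0.39 ± 0.12 SE, edgeR adjusted p 0.226). Cyp11a1, which starts steroid synthesis from cholesterol, had 84.8, 71.2 and 54.6 CPM against 84.1, 84.5 and 84.0, with heterozygous library 1 at the homozygous level (edgeR adjusted p 0.355). Espn, an actin-bundling protein of Sertoli cell junctions, had 79.8, 64.0 and 63.9 CPM against 86.0, 81.1 and 83.8 (edgeR adjusted p 0.185). Its heterozygous library 1 was close to the homozygous libraries but under each of them. Without that library 6 of 20 Leydig genes passed as higher (Cyp17a1, Cyp11a1, Hsd3b1, Por, Nr5a1 and Insl3), as did 4 of 22 Sertoli genes (Vim, Espn, Inha and Cldn11) and 1 of 13 peritubular myoid genes (Myl9), against 4.59% of all features. Of 20 round spermatid genes 5 passed as lower (Spaca7, Zpbp, Acrv1, Catsper1 and Izumo1), against 3.78% of all features, and 1, Tssk6, as higher. In that fit the medians were 0.26 for Leydig, 0.17 for Sertoli, 0.21 for peritubular myoid and -0.12 for round spermatid genes. With heterozygous library 3 left out instead, they were 0.008, 0.07, 0.11 and -0.05 in the same order. The Leydig median thus depended on heterozygous library 3 as well. What part cell composition or single libraries have in these values was not tested.

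Other cells that a testis sample can carry were at low or like levels. Of 15 genes of the epididymal epithelium 2 had enough reads to be tested, and 3 (Lcn5, Spint4 and Defb2) had 0 reads in all 6 libraries. Their 2 tested members summed to between 4.34 and 6.06 CPM in heterozygous and between 5.43 and 5.90 CPM in homozygous libraries. Red blood cell genes (6 of 8 tested) summed to 25.5 to 29.8 against 26.3 to 30.3 CPM. Endothelial genes (13 tested, median 0.02) summed to 51.2 to 63.5 against 50.7 to 58.8 CPM. These ranges overlap between the genotypes. Fat cell genes (10 of 14 tested, median -0.13) summed to 38.5 to 56.1 against 39.5 to 44.3 CPM, the highest being heterozygous library 1, and interstitial fibroblast genes (12 tested, median 0.11) summed to 107 to 163 against 137 to 149 CPM. EdgeR and DESeq2 called 0 members of each of these 5 lists. At an unadjusted p under 0.05, 1 endothelial gene and 1 fat cell gene were lower, and 1 fibroblast gene was higher and 1 lower. The shares of all features at that p were 5.85% higher and 7.32% lower. Without heterozygous library 1 the fibroblast median was 0.31 with 4 of 12 genes higher (4.59% of all features), and the fat cell median 0.13 with 1 of 10 genes lower (3.78% of all features). The endothelial median was then 0.10 and that of the 2 epididymal genes -0.16, with 0 called in either. With heterozygous library 3 left out instead, the fibroblast median was 0.002 and the fat cell median -0.24.

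**Figure D5:**
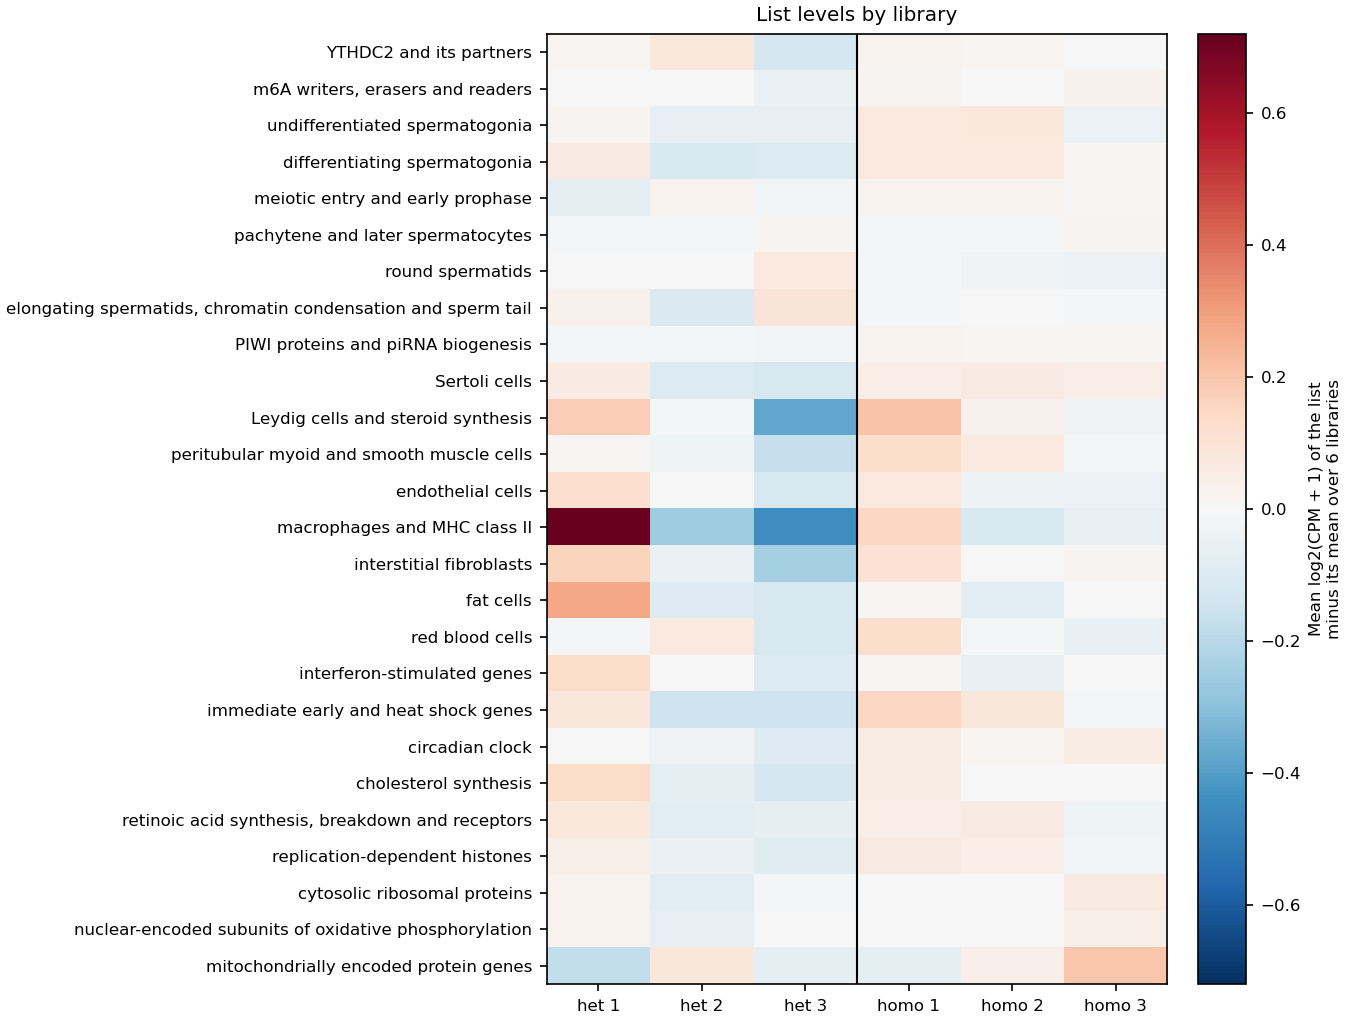
Mean log2(CPM + 1) of each list's tested members in each library, less the list's mean over the 6 libraries (red above, blue below; the line divides the genotypes). Heterozygous library 1 is darkest for macrophage genes, at a mean of 3.78 against 2.61 to 3.21 in the other 5 libraries, and heterozygous library 3 is lowest for Leydig genes.

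The calls were spread over the genome. A RefSeq position (GRCm38.p6, the same assembly as mm10) was found for 46 of the 53. Chromosome 12 had the largest share, 5 of 750 tested features (0.667%, against 0.236% of all features): Dpf3, Pgf, Rapgef5, Zc2hc1c and Gm33340. Chromosomes 14, 18, X and Y held 0 of 803, 522, 874 and 76. At so low a share few calls or none fall on each chromosome, and unevenness was not tested. Within 20 Mb of Ythdc2 on chromosome 18, 285 features were tested and 0 called by edgeR. At an unadjusted p under 0.05 there were 39 (13.7%), against 13.2% of all tested features. The smallest edgeR adjusted p in the stretch was 0.0755.

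The same transcripts were looked up in juvenile testis of the Ythdc2 knockout, another allele with other controls. In the authors' deposited table for total RNA at postnatal day 8, 25 of the 53 were measured and 0 passed an adjusted p of 0.05, with effects from -0.19 to 0.10 and a smallest adjusted p of 0.483. In the authors' deposited table for day 10, 26 were measured and 0 passed, with effects from -0.05 to 0.24 and a smallest adjusted p of 0.102, that of Baiap3. Signs were those of the adult change in 14 of 25 and 19 of 26, as the authors' deposited tables give them. The shares of all features that passed, or that kept the adult sign, at these ages are not given here. Without those shares, these counts do not show whether the adult and juvenile changes overlap. For Dpf3 the authors' deposited table gives 0.07 at day 8 and -0.00357 at day 10, where neither passed. The base of the juvenile effects is not stated, so their size cannot be set against the adult log2 fold changes. For the adult libraries, the authors' deposited table from DESeq2 listed 195 features past 0.05, 81 higher and 114 lower, among them all 53 called here by edgeR.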

How the data were processed

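RNA-seq of 6 adult testis libraries was used. The raw read counts were deposited by the authors for 55566 features, of which 165 are piRNA clusters. Per the labels' protocols RNA was taken up in Trizol, and libraries followed ribosomal depletion or poly(A) selection, without saying which was used for the adults. Alignment with STAR to mm10 and comparison with DESeq2 are named in the submitters' processing notes; no version, counting program or strand setting is stated there. Deposited log2 fold changes and adjusted p-values of the authors (DESeq2 for adults, anota2seq 1.14.0 for juveniles, per the file headers and description) were copied as they stand.

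Features passing filterByExpr were tested with edgeR 4.0.16 on TMM-scaled counts in R 4.3.3 (quasi-likelihood, no covariate, Benjamini-Hochberg adjustment, threshold 0.05); the biological coefficient of variation was 6.77%. The scripts were tested on simulated data. Replicates were taken as separate animals because the labels number animals, and every pair of libraries of a group differed by more than sampling noise. Alternatives were other scalings, filters and thresholds, robust dispersion, a replicate block, DESeq2 1.42.0 and leaving out each library. Named genes were the 12 higher and 12 lower with the largest change, and the 6 of each with the smallest p, among those with a proper symbol, a mean level at or above the median and groups that do not overlap, with up to 3 unnamed transcripts each way, Ythdc2 and its partners; any other name was picked with its values in view. Levels of lists are described and not tested. The members and lists were chosen with earlier results of these data known. Values for the medians of transcript classes without each library, and for list members without heterozygous library 1, were added after seeing the data. Promoters and positions come from RefSeq (GRCm38.p6): 33 of the 53 called features have a promoter there by symbol, 24 exactly 1. Tables were summarised in Python 3.11.15 (pandas 2.3.3, numpy 2.4.6) and drawn with matplotlib 3.10.9.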

Additional observations from a re-analysis of the deposited data

How the results depend on the processing

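The 53 calls (21 higher, 32 lower) depended most on single libraries: leaving out each library in turn gave between 3 and 1917 calls, 2 to 1052 higher and 1 to 865 lower, the top of each range being the fit without heterozygous library 1. The 53 were all kept without that library, which was singled out in these same data, so this is not separate support for them. Leaving out any other library kept between 3 and 15 of them. No filter gave 595 (272 higher, 323 lower), upper-quartile scaling 90 (67 lower), robust dispersion 80 (55 lower) and DESeq2 218 (87 higher, 131 lower), each with 53 of the 53 except robust dispersion with 52. A threshold of 0.01 gave 5 (3 higher, 2 lower), 0.1 gave 159 (58 higher, 101 lower), and adding a minimum of 1.5-fold gave 19 (7 higher, 12 lower). RLE scaling, library totals as they stand, at least 10 counts in every library and leaving out piRNA clusters gave between 52 and 56. The cause of these shifts was not tested. The replicate block by column number gave 355 calls (171 higher, 184 lower), with the 53 among them. Same-numbered libraries deviated together with r of 0.326, -0.035 and 0.221, against -0.292 to 0.138 for pairs of different number. These values do not settle whether the numbers pair libraries. As the labels do not say so, the numbers were not used as pairs in the main fit. Of 429 alternative values of 33 named genes, 307 kept direction and call, 120 kept direction and lost the call (118 of them with a library left out), and 2 reversed: with each library left out in turn, the log2 fold changes of Ythdc2 and Rbm46, not called with all 6, ran from -0.033 to 0.089 and from -0.022 to 0.078, the negative ends being without heterozygous library 3. DESeq2 gave no adjusted p for 6093 features. Among list medians under the alternatives, 217 moved by less than the spread between replicates and 26 by more, 10 of them without heterozygous library 1; 22 changed sign. With 3 libraries a group, 91.4% of features have a 95% interval within 2-fold.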

Other observations

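Lists of genes that most cells use also held no call by edgeR or DESeq2. The 87 cytosolic ribosomal protein genes tested had a median log2 fold change of 0.02, with 9 higher and 2 lower at an unadjusted p under 0.05. The 82 nuclear-encoded subunits of oxidative phosphorylation had a median of 0.02, with 4 higher. Of all features, 5.85% were higher and 7.32% lower at that p. All 13 mitochondrially encoded protein genes were above 0 (median 0.10, 1 higher unadjusted), and their summed level ran from 5634 to 6968 CPM in heterozygous and from 5848 to 7208 CPM in homozygous libraries, which overlap. Among 17 replication-dependent histone genes tested the median was 0.13, among 20 cholesterol synthesis genes 0.07 and among 18 retinoic acid genes 0.02, with 1 higher, 1 lower and 1 higher unadjusted. Without heterozygous library 1, where 4.59% of all features passed as higher, 3 of 20 cholesterol genes and 2 of 18 retinoic acid genes (Rara and Rxra) did so, with medians of 0.13 and 0.10. The interferon-stimulated list (17 tested) had a median of -0.14 and no member at an unadjusted p under 0.05, and 0.08 without heterozygous library 1, with 1 member higher (Bst2).

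Of these lists, the clock list held the member with the smallest adjusted p. Bhlhe41, a repressor of the circadian clock, had 2.22, 1.85 and 1.90 CPM in heterozygous and 3.33, 2.89 and 3.05 CPM in homozygous libraries (log2 fold change 0.64 ± 0.14 SE, edgeR adjusted p 0.0965), and the median of the 16 clock genes was 0.09. Of the 16, 2 (Bhlhe41 and Dbp) passed as higher without heterozygous library 1. Of 17 immediate early and heat shock genes 3 were higher unadjusted (5.85% of all features), and the median was 0.19, the largest of the 27 lists in size. Junb, an immediate early transcription factor, had 2.58, 1.06 and 1.17 CPM against 2.51, 3.04 and 2.35, with heterozygous library 1 inside the homozygous range (0.72, edgeR adjusted p 0.306). Without that library the list's median was 0.39 and 4 of 17 members passed as higher. Rpl36, a ribosomal protein gene, showed the same arrangement with 94.9, 54.6 and 63.8 CPM against 102, 91.9 and 94.9, and 11 of 88 ribosomal protein genes (median 0.03) and 9 of 82 oxidative phosphorylation genes (median 0.03) passed as higher without heterozygous library 1, against 4.59% of all features.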
